A study of Mus musculus with 8 samples.

Results

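The tumour suppressor p53 (gene Trp53), its inhibitor Mdm2 and 8 well-known direct targets, Cdkn1a, Ccng1, Phlda3, Trp53inp1, Sesn1, Aen, Zmat3 and Gadd45a, were followed in naive CD4+ T cells. They were taken by symbol, 10 of 24421 gene symbols in the count files, and all 10 had enough reads to be tested. The cells came from spleens of C57BL/6 mice labelled as males of 6 to 8 weeks, and RNA was sequenced from 4 libraries titled E1KO and 4 titled E1WT. The labels name mice whose floxed Pcbp1 is cut by Cre under Cd4 control (Pcbp1fl/flCd4-Cre) and wild-type mice. PCBP1 (hnRNP E1) binds RNA and single-stranded DNA, and Cre under this control acts in T cells from their development in the thymus onwards. In all 8 samples the genotype field contradicts the title: it reads Pcbp1+/+Cd4-Cre (WT) for the libraries titled E1KO and Pcbp1fl/flCd4-Cre (KO) for those titled E1WT, so that by this field both groups carry Cd4-Cre. Groups here are those of the titles. Nothing says that the 4 libraries of a title came from separate mice, so p-values measure the spread between libraries, which may be technical.

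p53 is a transcription factor that is held at a low level by MDM2, a ubiquitin ligase that marks it for destruction. DNA damage and other stresses release p53, which then binds paired half-sites in DNA and switches on genes that stop the cell cycle, aid repair or drive cell death. MDM2 is itself such a target, which closes a feedback loop. In T cells p53 acts as a checkpoint on damaged or dividing cells, and the amount of Trp53 RNA need not follow the activity of the protein.

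Pcbp1 itself had 38.8 to 42.4 CPM (read counts scaled to the library total) in E1KO libraries, against 196 to 240 CPM in E1WT libraries, as the titles, but not the genotype field, would have it. Libraries held 28264655 to 36738202 gene counts. Reads that were counted to no gene made up 28.2% to 30.8% of the counts in E1KO libraries, against 33.3% to 37.0% in E1WT libraries, and the part of this difference in the results was not tested. Xist, the RNA of the inactive X chromosome, had 378 to 433 CPM in E1KO libraries, against 0.544 to 2.82 CPM in E1WT libraries, and the Y-linked genes Ddx3y, Kdm5d, Uty and Eif2s3y stood in E1KO libraries at 0.472 to 0.507 times their E1WT level. Differences between the titles cannot be told apart from this sex-linked signal, although none of the 10 genes lies on X or Y. The naive CD4+ T cell markers (Cd3d, Cd3e, Cd3g, Cd4, Tcf7, Lef1, Ccr7, Il7r and Satb1) were all present. Their summed level was 5258 to 5453.5 CPM in E1KO libraries, against 6149.6 to 6283 CPM in E1WT libraries. Of these 9 markers 4 were called lower, beside 11.1% of all tested genes, and 0 higher, beside 12.2%.

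The promoters of the members are shown because binding of p53 to DNA is what makes a gene its direct target. RefSeq promoter windows on GRCm38.p6, from 250 bases before to 50 bases after a gene start, were at hand for 8 of the 10 genes, not for Trp53inp1 and Zmat3, and 3 genes had a pair of windows, which makes 11. The p53 consensus half-site is 10 bases long: purines, then C, a pair of A or T, G, and pyrimidines. It reads the same on both strands. A half-site without mismatch was found in 8 of 11 member windows (7 of the 8 genes) and in 8.36% of all 32851 windows. Members other than Trp53 were listed as known p53 targets, so this count is a description and not independent of the list. A full site means 2 half-sites with at most 3 mismatches in all and at most 3 bases between them. Mismatches were allowed only at the purines and pyrimidines, not at the C, the pair of A or T, or the G. Such a full site was found in 5 of 11 member windows (4 of the 8 genes) and in 2.21% of all windows. Of the 5 windows of the 3 genes that were higher in E1KO libraries 4 follow, without the first Aen window, which overlaps the second and holds the same site, with half-sites and full sites in capitals.
Cdkn1a, first start, chr17:29090729-29091028, plus strand: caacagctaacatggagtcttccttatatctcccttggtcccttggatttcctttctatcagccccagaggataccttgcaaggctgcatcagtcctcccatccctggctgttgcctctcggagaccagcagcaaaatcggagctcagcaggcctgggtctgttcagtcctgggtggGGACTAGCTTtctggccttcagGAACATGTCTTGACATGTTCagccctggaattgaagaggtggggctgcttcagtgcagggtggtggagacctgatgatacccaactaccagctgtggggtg
Cdkn1a, second start, chr17:29093519-29093818, plus strand: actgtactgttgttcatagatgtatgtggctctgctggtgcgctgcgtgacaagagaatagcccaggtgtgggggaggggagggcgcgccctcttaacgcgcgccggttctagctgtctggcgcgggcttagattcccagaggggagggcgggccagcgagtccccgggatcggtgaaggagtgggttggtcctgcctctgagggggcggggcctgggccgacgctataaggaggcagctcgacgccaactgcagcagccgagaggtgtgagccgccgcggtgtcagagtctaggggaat
Aen, second start, chr7:78895808-78896107, plus strand: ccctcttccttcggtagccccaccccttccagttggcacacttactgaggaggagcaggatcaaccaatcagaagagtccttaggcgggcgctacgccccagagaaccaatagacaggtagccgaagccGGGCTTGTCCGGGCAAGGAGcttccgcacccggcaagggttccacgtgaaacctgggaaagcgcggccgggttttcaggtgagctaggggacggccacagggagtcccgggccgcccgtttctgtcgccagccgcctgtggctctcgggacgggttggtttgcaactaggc
Phlda3, chr1:135765835-135766134, plus strand: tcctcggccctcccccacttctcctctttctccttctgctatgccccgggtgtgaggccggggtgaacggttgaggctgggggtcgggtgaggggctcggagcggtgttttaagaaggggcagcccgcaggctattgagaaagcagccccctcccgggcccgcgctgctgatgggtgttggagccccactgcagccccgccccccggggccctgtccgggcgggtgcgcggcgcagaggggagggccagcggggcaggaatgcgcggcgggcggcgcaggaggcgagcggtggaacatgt

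The first Cdkn1a window holds a full site with 1 mismatch, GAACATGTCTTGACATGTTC, at chr17:29090928-29090947, which lies 51 bases before the first start and 2841 bases before the second. An extra half-site, GGACTAGCTT, begins 73 bases before that first start. In Aen the full site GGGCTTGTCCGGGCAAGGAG, with 3 mismatches, lies at chr7:78895937-78895956 and is shared by both overlapping windows of the gene. The Phlda3 window has no complete half-site without mismatch. Its last bases, gaacatgt, match the start of a half-site, and bases beyond the window were not searched. The Phlda3 window has 3 copies of GGGCGG or its reverse complement, a GC-box motif that 35.7% of all windows hold. Among the genes that were not called, a full site or a half-site was found in the following places.
Trp53, full site, chr11:69580284-69580303, plus strand, 75 bases before the start: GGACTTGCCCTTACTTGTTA
Sesn1, full site, chr10:41887253-41887275, plus strand, 186 bases before the second start: GCGCTTGGCCTTCAAGCTTGTTT
Mdm2, half-site, chr10:117710935-117710944, minus strand, 186 bases before the start: GAACTTGCCT
Ccng1, half-site, chr11:40755462-40755471, minus strand, 185 bases before the start: GGGCAAGCCT
Gadd45a, half-site, chr6:67037438-67037447, minus strand, 40 bases before the start: GGGCTAGCCC
Windows with a half-site thus occur both among genes that were higher and among genes that did not pass the test. A match of letters does not show binding.

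Phlda3, Cdkn1a and Aen were higher in E1KO libraries, and none of the other 7 genes, p53 and Mdm2 among them, passed the test in either direction. Genes were called at an adjusted p of 0.05 in edgeR's quasi-likelihood test with Benjamini-Hochberg adjustment over 13333 tested genes. Of the 10 genes 3 were called higher, beside 12.2% of all tested genes, and 0 were called lower, beside 11.1%, which together make 3 of 10 beside 23.3%. At an unadjusted p under 0.05 there were 4 higher and 0 lower, and DESeq2 called 3 higher and 0 lower. The median log2 fold was 0.145 over the 10 genes and 0.007 over all tested genes. In the same 3 genes all E1KO libraries lay above all E1WT libraries in CPM, which held for 18.7% of tested genes. None lay wholly below, which held for 8.44%, and 27.1% of tested genes were apart in either direction. CPM lack the scaling between libraries that the folds use, which lowers E1KO values against E1WT values. Counts of libraries above or below others, here and for each gene, depend on this.

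**Figure D1:**
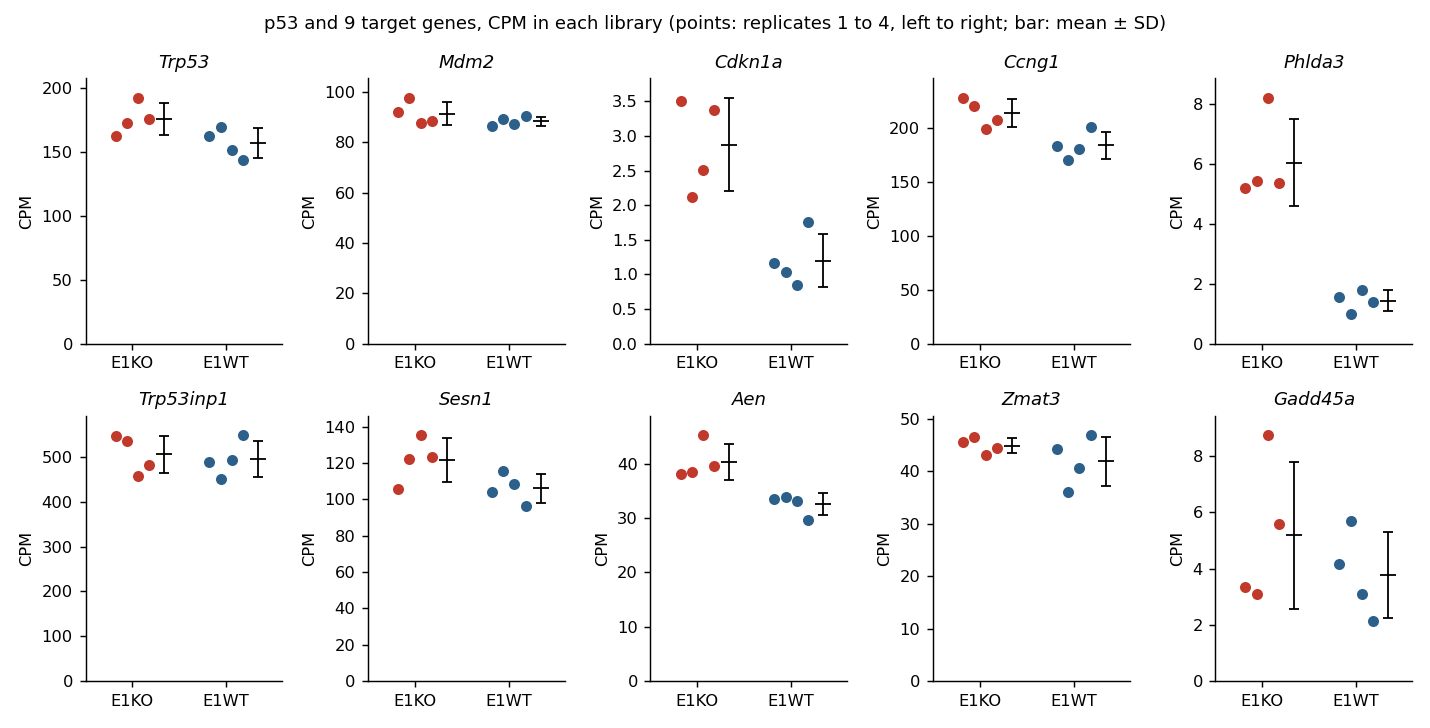
Each panel plots the CPM of 1 gene on a linear axis from 0, with the 4 E1KO libraries at the left and the 4 E1WT libraries at the right, replicates 1 to 4 from left to right within a title, and a bar for the mean ± SD. The groups do not overlap for Phlda3 (5.18 to 8.18 against 0.980 to 1.80 CPM), Cdkn1a (2.12 to 3.51 against 0.847 to 1.75 CPM) and Aen (38.1 to 45.3 against 29.7 to 33.9 CPM).

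Trp53, on chromosome 11 from 69580359 to 69591873 of the plus strand (GRCm38, GENCODE M21, as for all genes below), had 162, 173, 192 and 175 CPM in E1KO libraries 1 to 4, against 162, 170, 151 and 143 CPM in E1WT libraries 1 to 4. In 3 E1KO libraries it lay above every E1WT library, and E1KO 1 fell within the E1WT range, so the groups overlap. It averaged 175 ± 12.4 CPM in E1KO and 157 ± 11.7 CPM in E1WT libraries (SD, n = 4 each), a log2 fold of 0.10 ± 0.06 (SE) with an adjusted p of 0.288 in edgeR. The 95% interval of the fold ran from 0.973 to 1.18.

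Mdm2, the ubiquitin ligase that restrains p53 and is also its target, spans 117688875 to 117710758 of chromosome 10 (minus strand). Its values were 92.0, 97.6, 87.6 and 88.6 CPM in E1KO libraries, against 86.7, 89.4, 87.3 and 90.5 CPM in E1WT libraries. The groups overlap, and all libraries lay close together. The log2 fold was -0.02 ± 0.05 (adjusted p = 0.874 in edgeR), and the 95% interval of the fold, 0.913 to 1.07, was the narrowest of the 10 genes on a log scale.

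Cdkn1a encodes p21, an inhibitor of cyclin-dependent kinases that carries out the p53-driven arrest of the cell cycle. The gene lies on the plus strand of chromosome 17 from 29090976 to 29100727. It had 3.51, 2.12, 2.50 and 3.37 CPM in E1KO libraries, against 1.17, 1.03, 0.847 and 1.75 CPM in E1WT libraries. All E1KO libraries were above all E1WT libraries, and E1WT 4 was the one nearest to them. These levels rest on 68 to 126 reads per E1KO library and 24 to 64 reads per E1WT library. Cdkn1a rose 2.28-fold, with a 95% interval of 1.5 to 3.47 (log2 fold 1.19 ± 0.28, adjusted p = 0.00977 in edgeR). It was called in all 19 alternative analyses, with log2 folds of 1.06 to 1.45. An annotated transcript on the opposite strand, AC167363.2, which was not used here, shares 273 bp with the exons of Cdkn1a.

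Phlda3, on the plus strand of chromosome 1 from 135766119 to 135769136, encodes a small pleckstrin-homology protein that competes with the kinase AKT for membrane lipids and so dampens its activation. It had 5.18, 5.43, 8.18 and 5.34 CPM in E1KO libraries, against 1.56, 0.980, 1.80 and 1.39 CPM in E1WT libraries. Every E1KO library was above every E1WT library, with E1KO 3 standing above the other E1KO libraries. Read counts were 174 to 252 per E1KO library and 36 to 51 per E1WT library. Phlda3 rose 4.05-fold, with a 95% interval of 2.88 to 5.68 (log2 fold 2.02 ± 0.22, adjusted p = 0.0001 in edgeR). Without the E1KO 3 library its log2 fold was 1.84 and its adjusted p 0.000273, and it was called in all 19 alternative analyses.

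Aen, the apoptosis-enhancing nuclease, is on the plus strand of chromosome 7 from 78895854 to 78911209. It had 38.1, 38.5, 45.3 and 39.6 CPM in E1KO libraries, against 33.6, 33.9, 33.3 and 29.7 CPM in E1WT libraries. The groups did not overlap, but the difference was small: a 1.19-fold rise with a 95% interval of 1.06 to 1.32 (log2 fold 0.25 ± 0.07, adjusted p = 0.0306 in edgeR). The call ended in 5 of the 8 analyses that left out 1 library. Without E1KO 3, E1KO 4, E1WT 1, E1WT 3 or E1WT 4 the adjusted p was 0.0817, 0.068, 0.06, 0.0653 or 0.07, and the log2 fold was 0.19 to 0.26.

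Ccng1 encodes cyclin G1, which acts with a phosphatase in the feedback between p53 and MDM2, and spans 40748552 to 40755311 of chromosome 11 (minus strand). Its values were 228, 220, 199 and 207 CPM in E1KO libraries, against 183, 170, 181 and 201 CPM in E1WT libraries. E1KO 3 was the only E1KO library not above every E1WT library. The log2 fold of 0.15 ± 0.07 did not pass (adjusted p = 0.134 in edgeR), but without the E1WT 4 library it was 0.21 and passed at 0.0416.

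Sesn1, a sestrin that restrains the growth kinase mTORC1, is on the plus strand of chromosome 10 from 41809935 to 41908424. It had 106, 122, 135 and 124 CPM in E1KO libraries, against 104, 116, 108 and 96.2 CPM in E1WT libraries. Again 3 E1KO libraries lay above all E1WT libraries and E1KO 1 lay among them. The log2 fold was 0.14 ± 0.07 (adjusted p = 0.22 in edgeR), with a 95% interval of the fold of 0.980 to 1.23.

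Trp53inp1, a nuclear protein that promotes p53 activity and autophagy, lies on the plus strand of chromosome 4 from 11156431 to 11174379. It had 547, 535, 459 and 483 CPM in E1KO libraries, against 488, 451, 493 and 548 CPM in E1WT libraries. The ranges were almost the same (log2 fold -0.03 ± 0.08, adjusted p = 0.813 in edgeR), and the 95% interval of the fold was 0.866 to 1.11. Zmat3, a zinc-finger protein that binds RNA, spans 32334792 to 32366014 of chromosome 3 (minus strand). It had 45.6, 46.5, 43.1 and 44.5 CPM in E1KO libraries, against 44.2, 36.0, 40.7 and 46.9 CPM in E1WT libraries. All E1KO values fell inside the E1WT range (log2 fold 0.04 ± 0.09, adjusted p = 0.804 in edgeR).

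Gadd45a, a small stress-induced protein of growth arrest and DNA repair, spans 67035096 to 67037457 of chromosome 6 (minus strand). It had 3.34, 3.09, 8.74 and 5.58 CPM in E1KO libraries, against 4.17, 5.69, 3.10 and 2.13 CPM in E1WT libraries. Libraries of 1 title spread widely and the groups overlap. Its log2 fold of 0.39 ± 0.35 (adjusted p = 0.456 in edgeR) has a 95% interval of the fold from 0.769 to 2.24, the widest of the 10 genes on a log scale, and rests on 78 to 269 reads per library. Without E1KO 3 the log2 fold was 0.03 (adjusted p = 0.961 in edgeR). The opposite-strand transcript E230016M11Rik shares 337 bp, or 19.1% of the Gadd45a exons. It stood at 0.0974 to 0.607 CPM in E1KO libraries, against 0.544 to 0.708 CPM in E1WT libraries. The sources used here do not say whether counting was strand-specific, so it is not known to which gene, if any, reads there were counted.

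**Figure D2:**
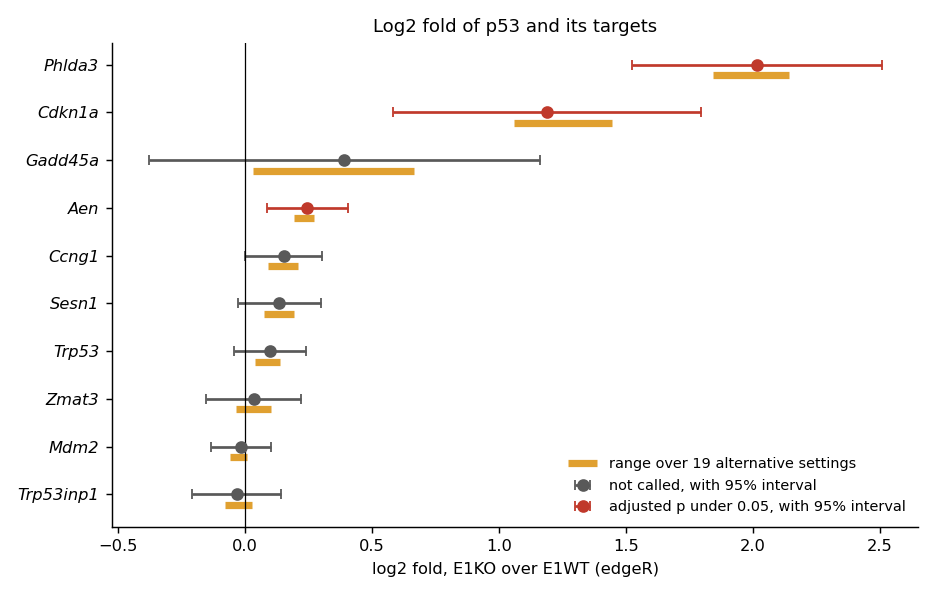
Points are log2 folds of E1KO over E1WT from edgeR with 95% intervals as bars, red for genes called higher and grey for the rest, and the ochre strips span the log2 folds over 19 alternative analyses. Phlda3 (2.02) and Cdkn1a (1.19) stand apart from the other 8 genes, whose log2 folds lie between -0.03 and 0.39.

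Per length of exon the order of the levels was the same in both titles apart from Phlda3 and Gadd45a. In CPM per kb of merged exons, Trp53inp1 led with 78.2 ± 6.48 in E1KO and 76.5 ± 6.22 in E1WT libraries (SD, n = 4 each). Ccng1 followed at 60.8 ± 3.68 in E1KO and 52.3 ± 3.60 in E1WT libraries, then Trp53 at 43.4 ± 3.06 and 38.7 ± 2.89, Sesn1 at 30.6 ± 3.06 and 26.6 ± 2.06, Mdm2 at 18 ± 0.888 and 17.4 ± 0.351, and Aen at 6.96 ± 0.573 and 5.62 ± 0.340, each with the E1KO level first. Zmat3 had 3.93 ± 0.126 CPM per kb in E1KO and 3.67 ± 0.410 in E1WT libraries. In the order of E1WT levels Gadd45a (2.14 ± 0.864), Phlda3 (0.919 ± 0.221) and Cdkn1a (0.338 ± 0.110) came last, and in that of E1KO levels Phlda3 (3.87 ± 0.922) stood above Gadd45a (2.94 ± 1.48), with Cdkn1a (0.809 ± 0.189) at the end. The ranges over libraries overlapped between Zmat3 and the gene next below it in either title, and between Phlda3 and Gadd45a in E1KO libraries. All other neighbours in these orders were apart. Both genes with rises over 2-fold were therefore the lowest of the 10 in E1WT libraries, where Phlda3 stood at the percentile 22.7 and Cdkn1a at 12.7 of tested genes by level per kb.

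Within a title most members split by library, though not Phlda3, Mdm2 and Zmat3. Phlda3 was highest in E1KO 3 and E1WT 3, and Mdm2 and Zmat3 in E1KO 2 and E1WT 4. Trp53, Sesn1, Aen and Gadd45a were highest in E1KO 3 among E1KO libraries and in E1WT 2 among E1WT libraries. Cdkn1a, Ccng1 and Trp53inp1 were highest in E1KO 1 and in E1WT 4. Trp53, Sesn1 and Aen were lowest in the same pair, E1KO 1 and E1WT 4. These libraries also differed over all genes in how levels went with exon length. The part of this difference in the split was not tested. Merged exons measured 3512 bases in Ccng1, 3553 in Cdkn1a and 6475 in Trp53inp1. They measured 4045 bases in Trp53, 3982 in Sesn1, 5801 in Aen and 1764 in Gadd45a. Each gene's log2 CPM, minus its mean of 8 libraries, was correlated with exon length, and Spearman's rho over 13246 genes was -0.319 in E1KO 3 and 0.223 in E1KO 1, and -0.262 in E1WT 2 and 0.317 in E1WT 4. E1KO 4, at -0.227, was on the side of E1KO 3, and the other 3 libraries lay between -0.0116 and 0.0901. With this trend removed, Phlda3 (log2 fold 1.97, adjusted p = 2.53e-05), Cdkn1a (1.12, 0.00998) and Aen (0.22, 0.0465) were still called in edgeR. Without E1KO 1 and E1WT 4 together, Phlda3 (2.07, 0.000116) and Cdkn1a (1.32, 0.00663) were called and Aen (0.23, 0.0579) was not.

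**Figure D3:**
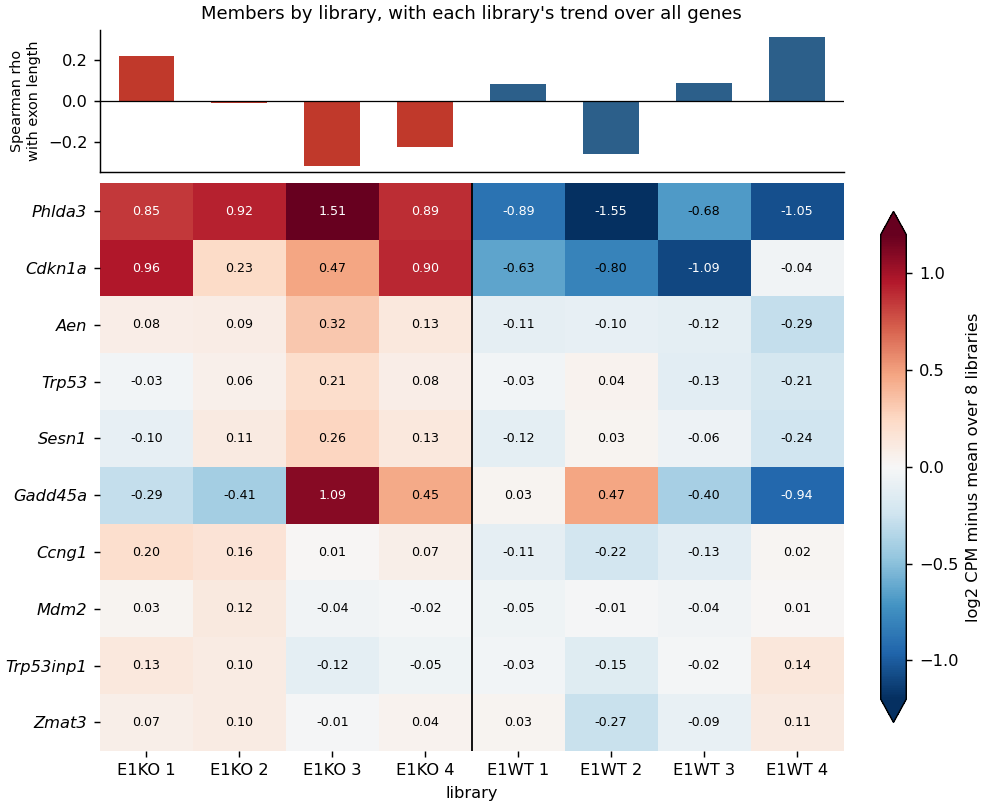
The lower panel gives each gene's log2 CPM in each library minus its mean over the 8 libraries, E1KO libraries at the left of the line and E1WT libraries at the right, and the bars above it give the Spearman correlation of each library with exon length over all genes. Phlda3 and Cdkn1a differ by title in every library, while Trp53, Sesn1, Aen and Gadd45a are highest in E1KO 3 (0.21, 0.26, 0.32 and 1.09).

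Markers of several other cell types were also higher in the E1KO libraries, but not those of CD8 T cells. Beside the counts given here, 12.2% of all tested genes were called higher and 11.1% lower. The summed level of 6 monocyte and macrophage markers was 69.9 to 86.9 CPM in E1KO libraries, against 28 to 34.9 CPM in E1WT libraries, with 4 of 6 called higher. Dendritic cell markers stood at 26.8 to 31.6 against 13.0 to 16.2 CPM in E1WT libraries (5 of 6 called higher), and erythroid markers at 109 to 146 against 37.7 to 53.9 CPM (4 of 5 tested called higher). The globin genes Hba-a1 and Hbb-bt are listed at 0 in every library. NK cell markers stood at 61.5 to 85.7 against 47.1 to 56.6 CPM (3 of 5 called higher), and plasma cell markers at 726 to 930 against 448 to 670 CPM (1 of 3). B cell markers stood at 175 to 194 against 146 to 180 CPM (1 of 5 called higher), neutrophil markers at 37.3 to 42.8 against 34 to 37.0 CPM (1 of 4 called each way) and CD8 T cell markers at 20.5 to 28.8 against 24.6 to 30.7 CPM (1 of 2 called lower). The part of other cell types in the rises of Cdkn1a, Phlda3 and the genes below was not tested. In bulk RNA, more cells of a type and more RNA per cell cannot be told apart.

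Among p53 targets that drive cell death, 4 of 13 tested genes were called higher, beside 12.2% of all tested genes, and 1 lower, beside 11.1%. The median log2 fold was 0.282, beside 0.007 over all tested genes. Bbc3, which encodes PUMA, a BH3-only protein that triggers apoptosis, had 51.5, 54.2, 60.0 and 53.2 CPM in E1KO libraries, against 23.4, 28.1, 27.3 and 17.9 CPM in E1WT libraries. It rose by a log2 fold of 1.12 ± 0.12 with no overlap between the titles (adjusted p = 7.35e-05 in edgeR). Pmaip1, which encodes the BH3-only protein NOXA, rose by 0.62 ± 0.14, Pidd1, a scaffold of caspase-2 activation, by 0.61 ± 0.14, and Bid, a BH3-only protein cleaved by caspase-8, by 0.42 ± 0.09 on the log2 scale. Fdxr, a mitochondrial reductase of electron transfer, fell to 12.6 to 17.3 CPM in E1KO libraries, against 20.9 to 27.6 CPM in E1WT libraries (log2 fold -0.86 ± 0.12, adjusted p = 0.000334 in edgeR). Bax, which permeabilises mitochondria, and the death receptor Fas, both named after their values were seen, had log2 folds of 0.28 and -0.17 (adjusted p = 0.289 and 0.286 in edgeR).

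Other p53 targets, of repair, metabolism and arrest, were called higher in 6 of 25 cases (12.2% over all tested genes) and lower in 2 (11.1% over all), with a median log2 fold of 0.174. Steap3, an iron reductase of endosomes that is also used in erythroid cells, had 18.2, 18.6, 17.1 and 18.2 CPM in E1KO libraries, against 5.06, 6.83, 5.57 and 6.73 CPM in E1WT libraries, a log2 fold of 1.51 ± 0.11 (adjusted p = 6.44e-06 in edgeR). Erythroid markers were higher in the same libraries, as were markers of monocytes and macrophages and of dendritic cells. The part of any of these cell types in the rise of Steap3 was not tested. Gtse1, a microtubule-binding protein that counters p53 in dividing cells, rose by 0.84 ± 0.13, Ddit4, an inhibitor of mTORC1, by 0.53 ± 0.10, Ninj1 by 0.51 ± 0.13 and Pcbp4, a paralog of Pcbp1 known as a p53 target in human cells, by 0.37 ± 0.09. Ninj1 lost its call without E1KO 4 (adjusted p = 0.0565) or E1WT 1 (0.0502). Rrm2b, a ribonucleotide reductase subunit for repair, fell by 0.21 ± 0.06 (adjusted p = 0.0214 in edgeR). It lost its call without E1KO 4, E1WT 3 or E1WT 4, at an adjusted p of 0.0745, 0.0646 or 0.0514. The other called genes were the repair factors Xpc and Ercc5, a pair picked out once values were known. Xpc was higher (log2 fold 0.17, adjusted p = 0.0391 in edgeR) and Ercc5 lower (-0.20, 0.0444). The count called higher was 5 without E1KO 3, E1WT 2, E1WT 3 or E1WT 4, and 4 without E1KO 4 or E1WT 1. The count called lower was 1 without E1KO 1, E1KO 2, E1WT 1 or E1WT 2, and 0 without E1KO 4, E1WT 3 or E1WT 4.

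Of 20 tested regulators of p53, 8 were called lower, beside 11.1% of all tested genes, and 3 higher, a share near the 12.2% of all tested genes. The median log2 fold was -0.149. Mdm4, the MDM2 relative that blocks p53's transactivation domain, had 301, 327, 298 and 277 CPM in E1KO libraries, against 381, 384, 387 and 401 CPM in E1WT libraries, with no overlap (log2 fold -0.43 ± 0.06, adjusted p = 0.000334 in edgeR). Atm, the kinase that signals double-strand breaks, had 146, 152, 134 and 129 CPM in E1KO libraries, against 184, 168, 193 and 217 CPM in E1WT libraries (log2 fold -0.50 ± 0.08, adjusted p = 0.00146 in edgeR). Prkdc, the DNA-dependent protein kinase, fell by 0.68 ± 0.10 and Dyrk2, a kinase that phosphorylates p53, by 0.38 ± 0.08 on the log2 scale. Atr, Ep300, Crebbp and Hipk2 were also called lower, and were named after their values were seen. Ppm1d, the phosphatase WIP1 that is a p53 target and switches p53 off again, rose by 0.32 ± 0.06, and the checkpoint kinase gene Chek1 by 0.66 ± 0.13. Chek2 was the third gene called higher, also named after its value was seen.

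Exon length differed between regulators called lower and higher. Merged exons measured 6251 to 23629 bases in the 8 genes called lower and 3001 to 4635 bases in the 3 called higher. The 9 regulators not called, at 2697 to 17516 bases, overlap both ranges, and exons measured 4327.5 bases at the median of tested genes. With the exon-length trend of each library removed, 9 regulators were called lower and 3 higher. Leaving out E1KO 4 brought the count called lower to 4, and leaving out E1WT 3 brought it to 5.

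Among close relatives of the members 2 of 14 tested genes were called higher and 1 lower, shares near the 12.2% and 11.1% of all tested genes, with a median log2 fold of 0.09. Sesn2, a sestrin induced by amino acid and oxidative stress as well as by p53, had 18.6, 19.1, 13.4 and 15 CPM in E1KO libraries, against 8.07, 6.83, 9.84 and 8.67 CPM in E1WT libraries (log2 fold 0.93 ± 0.15, adjusted p = 0.00102 in edgeR). Sesn3 had a log2 fold of -0.38 ± 0.13 that did not pass (adjusted p = 0.0578 in edgeR). It passed in 7 of 19 alternatives, among them DESeq2 (adjusted p = 0.0272), no filter on low counts (0.0442), the exon-length trend removed (0.00806), and the analyses without E1KO 1 (0.0213) or E1WT 2 (0.0135). Gadd45g rose by 1.01 ± 0.32, a call that was lost without E1KO 3, E1KO 4, E1WT 1 or E1WT 4 (adjusted p = 0.104, 0.0931, 0.0971 and 0.0573), and Gadd45b had a log2 fold of 0.20 ± 0.21 (adjusted p = 0.546). Isg20, an exonuclease related to Aen, fell by 0.36 ± 0.11 (adjusted p = 0.033) and was called in only 2 of the 8 analyses with 1 library left out, those without E1KO 3 and E1WT 4, and had adjusted p of 0.0605 to 0.0857 in the other 6. The count of relatives called higher was 4 without E1KO 1 or E1WT 2 and 1 without E1KO 3, E1KO 4, E1WT 1 or E1WT 4, and that called lower was 0 without E1KO 2, E1KO 4, E1WT 1 or E1WT 3. The p53 family genes Trp63, at most 0.418 CPM in E1KO and 1.2 CPM in E1WT libraries, and Trp73, at most 0.455 CPM in E1KO and 0.273 CPM in E1WT libraries, were too low to be tested.

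Cdkn1b, which encodes p27, the CDK inhibitor most tied to quiescence in T cells, had 229, 240, 222 and 234 CPM in E1KO libraries, against 216, 234, 227 and 208 CPM in E1WT libraries. Its log2 fold was 0.00 ± 0.05 (adjusted p = 0.993 in edgeR), with a 95% interval of the fold of 0.923 to 1.084. The cyclin G1 relative Ccng2 had a log2 fold of 0.17 ± 0.09 (adjusted p = 0.184). Of the cyclins, kinases and PCNA that p21 binds, 5 of 11 tested genes were called higher, beside 12.2% of all tested genes, and 0 lower, beside 11.1%, and at an unadjusted p under 0.05 the counts were 7 and 0. DESeq2 also called 5 and 0. The median log2 fold was 0.379. Ccna2, cyclin A2 of S phase, had 33.8, 31.8, 31.0 and 32.0 CPM in E1KO libraries, against 17.7, 17.2, 21.5 and 18.9 CPM in E1WT libraries (log2 fold 0.71 ± 0.09, adjusted p = 0.000178 in edgeR). Cdk1 rose by 0.77 ± 0.16, Ccnd1 by 0.59 ± 0.14, Ccne1 by 0.51 ± 0.11 and Ccnd3 by 0.38 ± 0.06 on the log2 scale. The other 6, Cdk2, Cdk4, Cdk6, Ccnd2, Ccne2 and Pcna, were not called, and were named after their values were seen. Their log2 folds were 0.10 to 0.44, with adjusted p of 0.112 to 0.800 in edgeR. Cdkn1a was thus higher in the same libraries as Cdk1 and the called cyclin genes, whose products p21 binds.

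**Figure D4:**
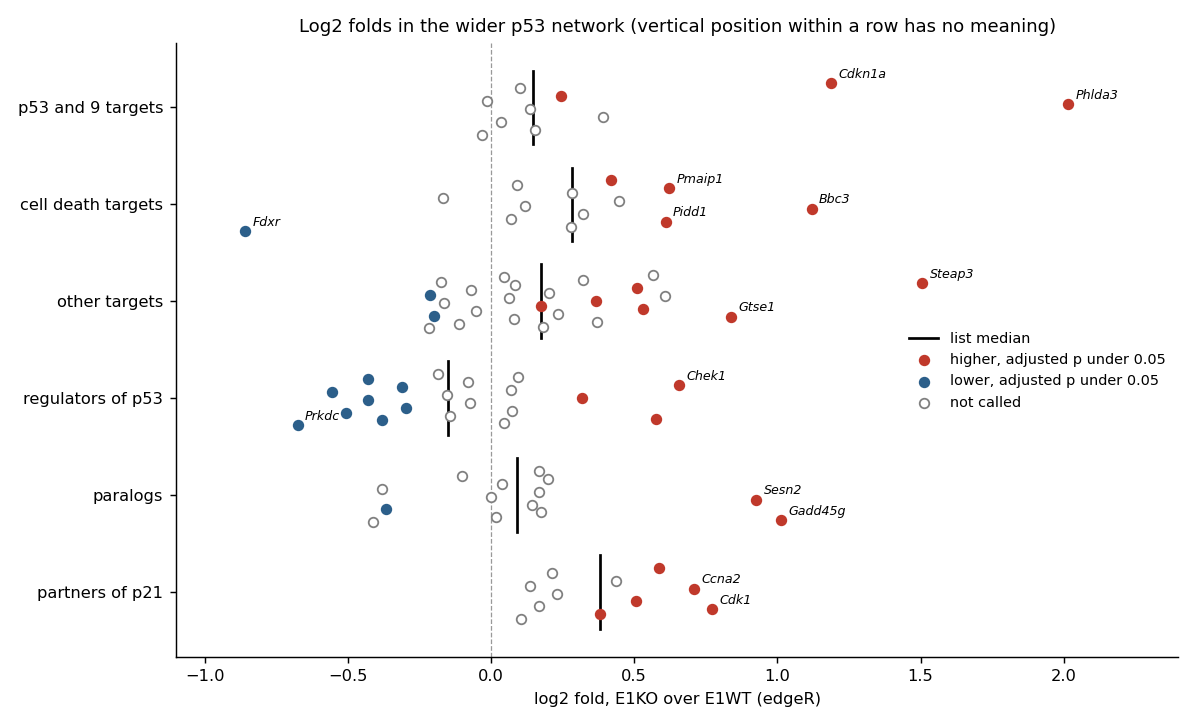
Each circle is a tested gene of 1 list, placed by its log2 fold of E1KO over E1WT, filled red or blue where called higher or lower and open where not called, with a black line at the list median. Medians run from -0.149 for regulators of p53 to 0.379 for partners of p21, and Phlda3 lies farthest to the right.

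**Figure D5:**
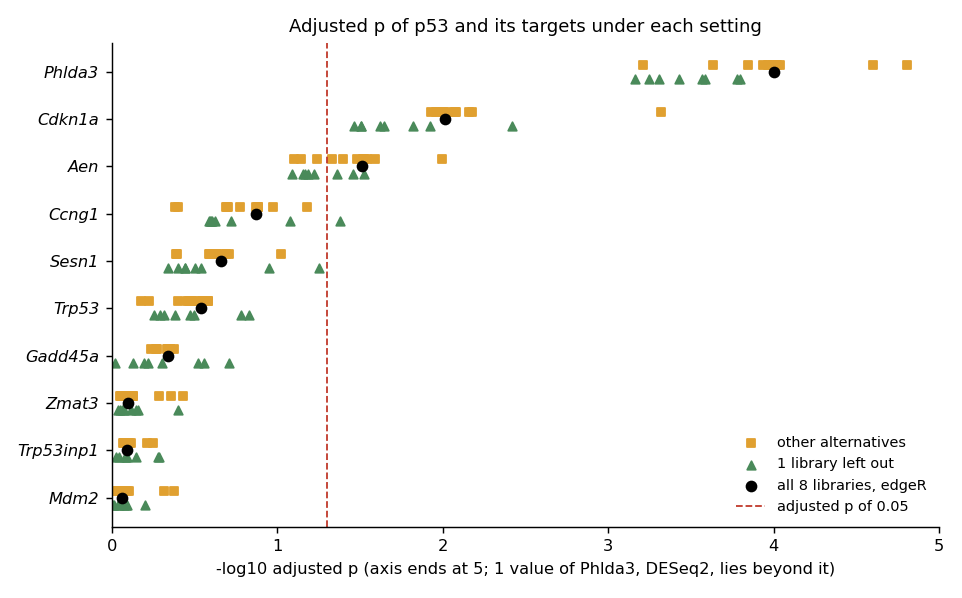
For each of the 10 genes the plot gives -log10 of the adjusted p with all 8 libraries (black circle), with 1 library left out (green triangles) and in the other alternatives (ochre squares), beside a dashed line at an adjusted p of 0.05. Phlda3 and Cdkn1a lie to the right of the line in all analyses, Aen lies on both sides of it, and Ccng1 crosses it once, without E1WT 4.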

How the data were processed

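The authors deposited raw counts: whole numbers of reads for each gene symbol, 1 file per library. Per the submitters' processing notes, TopHat2 2.1.0, HTSeq 0.9.1 and the mm10 build were used, while annotation and strand use are not given there or in the labels. Libraries were made from 50 ng of RNA and read as paired ends of 75 bases, per the labels' protocols. The 5 closing rows of each file, which name no gene, held 28.2% to 30.8% of the counts in E1KO and 33.3% to 37.0% in E1WT libraries and were left out. CPM were computed over gene rows.

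Libraries were grouped by title. The test over all genes was that of edgeR 4.0.16, run in R 4.3.3 (TMM scaling with factors of 0.965 to 1.03, default filter with a count minimum of 10, quasi-likelihood test, Benjamini-Hochberg). Folds use TMM, CPM do not. Factors were 1.013 to 1.034 in E1KO and 0.9653 to 0.9901 in E1WT libraries, so CPM stand higher in E1KO libraries than TMM-scaled values would. Intervals and SE come from the quasi-likelihood F statistic. Replicates of a title differed beyond sampling noise (chi-square per degree of freedom 4.10 to 60.1).

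The 10 genes, the 5 wider lists and the markers were chosen with earlier results of these data known. Named from each list were up to 6 called genes with the smallest p, plus close relatives; exceptions are said. Cop1 was matched as Rfwd2, Ly6g was not used here, and 1 further T cell marker is not reported here. Alternatives used DESeq2 1.42.0 and limma 3.58.1, other scalings and filters, exon-length correction, the replicate number as a block, and libraries left out. The edgeR test was tested on simulated counts. Positions and exon lengths come from GENCODE M21 (GRCm38, the assembly of mm10), and promoters from RefSeq. Figures were drawn with matplotlib 3.10.9.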

Additional observations from a re-analysis of the deposited data

Results flagged for a closer look

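In 94 groups of 4 libraries, formed by 47 named genes in 2 titles, 5 held a library that stood far from the other 3, where chance gives about 1 in 20. Phlda3 had 8.18 CPM in E1KO 3, with the next highest E1KO library at 5.43 CPM, and without E1KO 3 its log2 fold was 1.84. Aen had 29.7 CPM in E1WT 4, below the next lowest E1WT library at 33.3 CPM, and lost its call without that library (edgeR adjusted p = 0.07). Pidd1 had 10 CPM in E1WT 2, above the next E1WT library at 7.37 CPM. Ccnd3 had 172 CPM in E1WT 1, above the next at 161 CPM. The Y-linked Uty had 21.8 CPM in E1KO 2, above the next E1KO library at 16.9 CPM.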

How the results depend on the processing

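Over 19 alternatives, genes called higher and lower ran from 1151 to 1836 and from 1005 to 2136. Members called higher numbered 2 or 3 and lower 0 in every one, while Phlda3 and Cdkn1a were called in all 19 and Aen in 11. Counts of the lists moved by more than 1.5 times as follows. Other p53 targets called lower, 2 in the full analysis, numbered 1 with no filter on low counts and 0 without E1KO 1 and E1WT 4 together. Relatives called lower, 1 in the full analysis, numbered 2 with DESeq2, with no filter, with the exon-length trend removed (also with the replicate block) and without E1KO 1 and E1WT 4 together. Leaving out 1 library gave 1194 to 1659 genes higher and 1010 to 1566 lower, 4 to 8 regulators lower, 0 to 2 other targets lower, and 1 to 4 relatives higher and 0 to 1 lower. These analyses have fewer libraries, and the cause of the differences in counts was not tested. No named gene that was called reversed.

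Libraries that share a replicate number did not deviate together (correlations of -0.0993 to 0.0141). Such correlations cannot exclude that same-numbered libraries share an origin or a batch. With the replicate block, 1151 genes were called higher and 1005 lower, 2 members higher, 5 regulators lower, 0 other targets lower, 1 relative higher and 0 lower. Aen then had an adjusted p of 0.0721, and 0.0793 with the exon-length trend removed as well. Phlda3 and Cdkn1a stayed called with the block (0.000614 and 0.0118). No library correlated best with its own number.

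Depth limits Cdkn1a, Gadd45a and Phlda3, with 24 to 269 reads per library, and no alternative separates the titles from the sex-linked signal.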
